A study of Mus musculus with 9 samples.

Results

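Keratins are the filament proteins of epithelial cells, and their transcripts were compared here between 3 kinds of mouse cells. Members were all rows of the count table whose symbol is Krt followed by a number and at most 1 small letter, which left out keratin-associated proteins and symbols ending in -ps. There were 54 such genes among 56481 symbols, and 31906 of the symbols had a count in at least 1 library. The study has 9 RNA sequencing libraries, 3 of each group. The pNCC group is primary neural crest cells of E13.5 embryos, kept in DMEM with 10% fetal bovine serum, non-essential amino acids and L-glutamine. The iCEC group, labelled induced corneal endothelial cells, was made from neural crest cells on gelatin in DMEM/F12 with 5% knockout serum replacement, non-essential amino acids, 2-mercaptoethanol and 5 µM SB431542, which blocks the type I receptor for TGF-β. Per the labels, clusters appeared by day 4 of this treatment and colonies were characterised on day 12. The pCEC group, labelled primary corneal endothelial cells, was kept in the same serum medium as pNCC. The labels used here name no strain, genotype or age of the pCEC donors. Nothing in them tells whether the replicates are separate animals or cultures, so a p value here weighs a difference against the spread of these libraries alone, which may be technical.

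A keratin filament is built from pairs of 1 type I (acidic) and 1 type II (basic to neutral) chain, and epithelia differ in which pairs they make. Simple, single-layered epithelia use Krt8 with Krt18, the basal layer of stratified epithelia Krt5 with Krt14, and the upper layers of moist linings such as the conjunctiva Krt4 with Krt13. Krt12 is the type I keratin typical of the corneal epithelium, on the outer face of the cornea, whereas the corneal endothelium is a single layer on its inner face. Neural crest cells, like other mesenchymal cells, are known for filaments of vimentin rather than keratin.

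Total counts ran from 27389292 to 47967113 per library. Values are CPM, a gene's count scaled by the library total, and genes are compared with each other only per kilobase of exon (RPKM). Fold changes and p values come from edgeR's quasi-likelihood test, fitted on all genes of the 6 libraries compared, with Benjamini-Hochberg adjustment over all genes tested and a threshold of 0.05. The library iCEC 3 stood apart for many keratins, so a part of the tests that involve iCEC are also given without it. pCEC 1 is labelled polyA RNA like pNCC and iCEC, but pCEC 2 and 3 are labelled total RNA. The pCEC libraries held markers of more than the labelled cell type. A list of 4 corneal epithelial markers (Pax6, Aldh3a1, Tkt and Clu) summed to 30771 to 37788 CPM in pCEC, 641 to 1336 in iCEC and 210.2 to 278 in pNCC. Aldh3a1 and Tkt made up most of this sum in pCEC, and Clu overlapped between iCEC and pCEC. Every gene of the list had counts in each group. Of the corneal endothelial markers, Col8a2 averaged 89.2 CPM in pCEC, 11.0 in pNCC and 0.0760 in iCEC. Slc4a11 averaged 61.1, 1.76 and 6.73 CPM, Aqp1 267, 105 and 0.304 and Foxc1 146, 7.56 and 188 in the same order. Lmx1b was at 12.6 to 30.5 CPM in pCEC, 0.469 to 1.60 in pNCC and 0 to 2.86 in iCEC. Each of these 5 was called higher in pCEC than in pNCC (edgeR adjusted p = 8.59e-05 to 0.0395), although the libraries overlapped for Aqp1, while Col8a1 was called lower (edgeR adjusted p = 0.0167). The endothelial list is longer, and these genes were picked from it after their values were seen. Not every other gene of it averaged higher in pCEC than in pNCC. The keratocyte marker Kera averaged 294 CPM in pCEC and 0.672 in pNCC and was at 0 in iCEC. Its list went the other way, with the 5 keratocyte markers at a sum of 2516 to 3503 CPM in pNCC and 497 to 2087 in pCEC. Dcn, Thy1 and Pdgfra averaged higher in pNCC than in pCEC, and Lum overlapped between these groups. In bulk RNA, fewer cells of a type and less RNA per cell cannot be told apart.

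The genes lie on 2 chromosomes. Of the 28 type I genes, 27 are on chromosome 11 and 1, Krt18, is on chromosome 15 beside Krt8, while all 26 type II genes are on chromosome 15. Up to 120 bases before the transcription start are shown for members on which the results below turn. These are Krt5 and Krt12, which lead in pCEC, Krt8 and Krt18, which were higher in iCEC than in both other groups, and Krt7 and Krt13, which divided the iCEC libraries. The sequences are from RefSeq on GRCm38.p6, the same assembly as the mm10 named in the submitters' processing notes, and 36 of the 54 genes have an entry. Capitals mark a TATAAA sequence or a GCCNNNGGC sequence, the letters of a TATA box and of an AP-2 factor site, searched on both strands.
Krt5: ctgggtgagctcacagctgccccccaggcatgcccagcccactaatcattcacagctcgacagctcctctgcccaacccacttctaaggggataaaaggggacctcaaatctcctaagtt
Krt12: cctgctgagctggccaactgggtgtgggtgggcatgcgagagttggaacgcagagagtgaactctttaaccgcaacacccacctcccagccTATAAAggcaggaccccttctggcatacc
Krt13: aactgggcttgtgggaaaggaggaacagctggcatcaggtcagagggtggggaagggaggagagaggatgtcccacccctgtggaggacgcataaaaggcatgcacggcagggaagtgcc
Krt8: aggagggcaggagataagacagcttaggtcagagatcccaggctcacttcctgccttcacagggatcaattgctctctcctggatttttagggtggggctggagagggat
Krt18: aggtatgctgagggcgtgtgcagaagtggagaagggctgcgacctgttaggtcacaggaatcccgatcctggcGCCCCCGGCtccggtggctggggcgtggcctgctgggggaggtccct
Krt7: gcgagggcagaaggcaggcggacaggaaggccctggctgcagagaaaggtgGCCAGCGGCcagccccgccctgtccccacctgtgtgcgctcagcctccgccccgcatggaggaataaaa
Each stretch ends before the start of a protein-coding transcript in GENCODE M21, which for Krt8 and Krt18 lies 140 and 36 bases before the RefSeq start. That of Krt7 lies inside the annotated gene, since other Krt7 transcripts start further upstream. The RefSeq entry of Krt14 starts 1518 bases inside its protein-coding transcript and is not shown.
These stretches are chr15:101712906-101713025 on the minus strand for Krt5, chr11:99422260-99422379 minus for Krt12, chr11:100121567-100121686 minus for Krt13, chr15:102004483-102004592 minus for Krt8, chr15:102028060-102028179 plus for Krt18 and chr15:101412282-101412401 plus for Krt7. Over the 250 bases before the start, TATAAA was found in 17 of 37 keratin promoters (45.9%; Krt13 has 2 starts, and 35 of the 37 lie within 150 bases of a protein-coding start) against 12.4% of 32851 promoters in the table. Of the genes with 10 CPM or more in some group, 1 of the 11 with an entry, Krt14 included, holds it, Krt12, at 29 bases before the start. Of the other 25 keratins with an entry, which are mostly genes of the hair shaft and inner root sheath, 16 hold it, 11 of them at a similar distance. Only the exact letters were counted, so a promoter without a match may hold a variant of them. GCCNNNGGC was found in 5 keratin promoters, against 13.7% of all promoters, among them those of Krt18 and Krt7, and TGANTCA, the letters of an AP-1 site, in 2 (5.41%, against 6.75%), both of them starts of Krt13 and with no match in the stretch printed. The marked matches do not overlap each other. Such a match describes letters only.

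Keratins took up 0.0123, 0.0158 and 0.0188% of all counts in the 3 pNCC libraries, 3.24, 2.50 and 2.17% in iCEC and 4.22, 5.37 and 5.79% in pCEC. The 3 groups did not overlap. Summed keratin CPM averaged 156 ± 32.4 in the pNCC libraries, 26367 ± 5514 in iCEC and 51268 ± 8129 in pCEC (mean ± SD, n = 3 each), so that the mean was 169-fold higher in iCEC and 328-fold higher in pCEC than in pNCC. The number of keratins with any count was 17 to 19 in pNCC, 31 to 39 in iCEC and 38 to 43 in pCEC. In pNCC 31 of the 54 genes were at 0 in all 3 libraries, against 11 in iCEC and 7 in pCEC. A count of 0 allows up to 3 counts, which amounts to 0.0625 to 0.110 CPM depending on the library. Of the 54 genes, 19 had a mean of 10 CPM or more in some group, 6 had 1 to 10 CPM and 29 less than 1 CPM. Just inside the 10 CPM limit was Krt90 with 11.3 CPM in pCEC and just outside it Krt1 with 8.93.

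**Figure D1:**
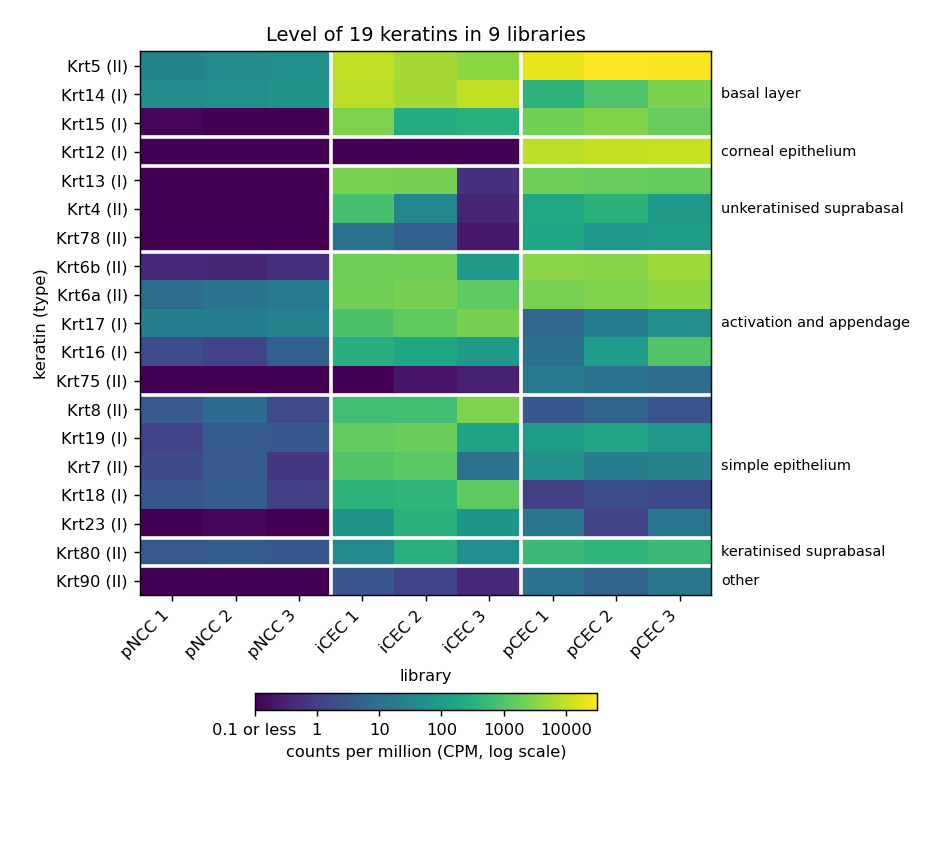
CPM (colour, log scale) of the 19 keratins with a mean of 10 CPM or more in some group (rows, with their type) in each of the 9 libraries (columns), grouped by the layer or tissue each keratin is known for. pNCC columns are dark except for Krt5, Krt14, Krt6a and Krt17; Krt12 is bright in pCEC alone, at 8974 to 11145 CPM, and Krt8 and Krt18 are bright in iCEC.

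Per kilobase, the balance of the chain types differed between the groups. Type I genes made up 67.3, 62.7 and 65.5% of summed keratin RPKM in the pNCC libraries, 58.5, 58.6 and 68.7% in those of iCEC and 36.6, 34.5 and 36.2% in those of pCEC. All 3 pCEC libraries lay below all others. Summed type I RPKM was 9548, 7217 and 8151 in iCEC and 7359, 8863 and 10049 in pCEC, so those groups overlapped. Summed type II RPKM was 6773, 5095 and 3712 in iCEC and 12723, 16799.9 and 17679 in pCEC, where every pCEC library exceeded every iCEC library. In pNCC the sums were 43.3, 51.0 and 64.3 for type I and 21.0, 30.4 and 33.8 for type II.

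**Figure D2:**
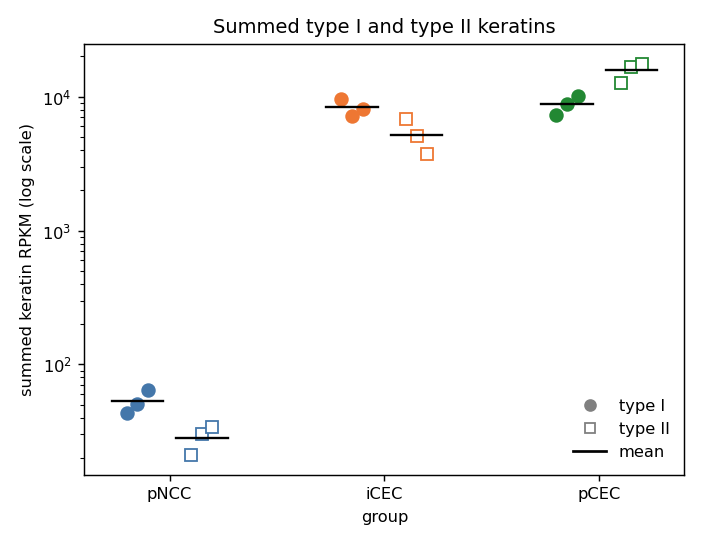
Summed RPKM of type I keratins (filled circles) and type II keratins (open squares) in each library, by group, on a log scale; black lines are means of 3 libraries. Type I sums of iCEC (7217 to 9548) and pCEC (7359 to 10049) overlap, while type II sums do not (3712 to 6773 against 12723 to 17679).

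The 3 basal layer keratins (Krt5, Krt14 and Krt15) were the largest class, with 60.0, 59.7 and 66.5% of keratin RPKM in pNCC, 64.7, 48.4 and 60.4% in iCEC and 56.0, 62.4 and 58.1% in pCEC. Krt5, the type II chain of basal cells, was at 30.7, 42.6 and 54.2 CPM in pNCC, 9345, 5734 and 3745 in iCEC and 21658, 30443 and 30082 in pCEC. The groups did not overlap, and pCEC was highest. The fitted log2 difference was 7.24 ± 0.58 (SE) for iCEC over pNCC (edgeR adjusted p = 0.000811), 9.46 ± 0.42 for pCEC over pNCC (edgeR adjusted p = 3.43e-06) and -2.24 ± 0.46 for iCEC over pCEC (edgeR adjusted p = 0.0197). Without iCEC 3 the last was -1.91 (edgeR adjusted p = 0.00841). That call was lost with iCEC 2 or any 1 pCEC library left out, at log2 differences of -2.42 to -2.14 and adjusted p values of 0.0518 to 0.0757. Krt14, the type I partner of Krt5, was at 43.1, 51.3 and 71.3 CPM in pNCC, 8367, 5643 and 9293 in iCEC and 353, 945 and 2547 in pCEC. Here iCEC was the highest group, and pCEC lay between iCEC and pNCC with a 7.22-fold range among its libraries. The log2 difference of Krt14 was 7.12 ± 0.37 for iCEC over pNCC (edgeR adjusted p = 0.000308) and 4.69 ± 0.78 for pCEC over pNCC (edgeR adjusted p = 0.00167). For iCEC over pCEC it was 2.42 ± 0.74, which did not pass (edgeR adjusted p = 0.0647) although the groups did not overlap. Without pCEC 3 it was 3.45 and passed (edgeR adjusted p = 0.0396).

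The ratio of Krt5 to Krt14 in RPKM was 0.570, 0.664 and 0.609 in the pNCC libraries, 0.894, 0.813 and 0.322 in those of iCEC and 49.1, 25.8 and 9.45 in those of pCEC. Krt14 thus exceeded Krt5 in each pNCC and iCEC library, and Krt5 exceeded Krt14 by 9.45-fold or more in each pCEC library. Krt15, a type I keratin of basal cells that is also known as a marker of limbal and hair follicle stem cells, was at 0.124, 0 and 0.0571 CPM in pNCC, 2718, 247 and 314 in iCEC and 2095, 2858 and 1699 in pCEC. iCEC 1 reached the level of pCEC and the other iCEC libraries did not. Krt15 rose in both groups against pNCC, by a log2 difference of 14.12 ± 1.80 in iCEC (edgeR adjusted p = 0.00327) and 15.22 ± 0.61 in pCEC (edgeR adjusted p = 2.81e-06). Between iCEC and pCEC it was not called at -1.12 ± 0.94 (edgeR adjusted p = 0.442), but without iCEC 1 it was called lower in iCEC at -3.12 (edgeR adjusted p = 0.0105).

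Krt12 separated pCEC from all other libraries. It had counts of 299927, 375992 and 305253 in pCEC, or 8974, 10428 and 11145 CPM, against 0 in each pNCC library and 0, 0 and 1 in iCEC. pCEC was at least 114466-fold higher than pNCC (edgeR adjusted p = 3.81e-06). Against iCEC the ratio of summed counts, scaled by the library totals, was 1.20e+06 (95% counting interval 215010 to 4.73e+07), and Krt12 was called lower in iCEC (edgeR adjusted p = 0.000621). Its RPKM of 5498 ± 597 placed it behind only Krt5 in pCEC. The annotation places Krt12 at chr11:99415666-99422259 on the minus strand, with the antisense gene A830036E02Rik over it at chr11:99416956-99425497 on the plus strand. The antisense gene had 51489, 76689 and 45005 counts in pCEC, or 17.2, 20.4 and 14.7% of those of Krt12, 0 in each iCEC library and 0, 7 and 1 in pNCC. Whether counting used strand is not given in the sources used here, so reads of this pair cannot be told apart. Pax6, the eye field transcription factor known to act on Krt12, was at 975, 797 and 724 CPM in pCEC, 0.104, 0.708 and 0.0595 in iCEC and 0.187, 0.147 and 0 in pNCC. Pax6, Aldh3a1 and Tkt of the corneal epithelial markers were likewise highest in the 3 pCEC libraries, and the part of these markers in the Krt12 and Krt5 levels was not tested.

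Krt13 and Krt4, the pair of the upper layers of unkeratinised epithelium, were absent from the counts of pNCC and divided the iCEC libraries. Krt13 was at 2433, 2411 and 0.595 CPM in iCEC and 1897, 1637 and 1612 in pCEC, with 0 counts in all pNCC libraries. The libraries iCEC 1 and 2 were above pCEC, and iCEC 3, with a count of 20, was 4069-fold below the mean of iCEC 1 and 2. pCEC was at least 19285-fold above pNCC (edgeR adjusted p = 2.18e-06), and iCEC at least 18155-fold (edgeR adjusted p = 0.0497). The iCEC call was lost when any 1 pNCC library, iCEC 1 or iCEC 2 was left out, at adjusted p values of 0.109 to 0.113, and without iCEC 3 it passed at 0.000152. Krt4 was at 758, 33.0 and 0.387 CPM in iCEC, 191, 335 and 92.0 in pCEC and 0 in pNCC. Its 3 iCEC values spanned 1959-fold. pCEC was at least 2316-fold above pNCC (edgeR adjusted p = 0.000217), while iCEC, at least 2965-fold above by its mean, did not pass (edgeR adjusted p = 0.0712) and did so without iCEC 3 (edgeR adjusted p = 0.015). That bound rests on iCEC 1, without which it is 188-fold. Neither gene was called between iCEC and pCEC, with log2 differences of -0.15 ± 1.76 for Krt13 and 0.27 ± 1.84 for Krt4 (edgeR adjusted p = 0.963 and 0.932). Krt78, a type II keratin of upper epithelial layers, was at 177, 86.1 and 112 CPM in pCEC, 12.1, 4.52 and 0.238 in iCEC, and in pNCC had 0 counts in pNCC 1 and 2 and 2 in pNCC 3. It was lower in iCEC than in pCEC, with a log2 difference of -4.53 ± 1.20 (edgeR adjusted p = 0.0436), a call that was lost when iCEC 2 or any 1 pCEC library was left out (adjusted p = 0.102 to 0.116), while without iCEC 3 it was -3.94 (edgeR adjusted p = 0.00482). The set of 3 made up 10.4, 10.9 and 0.00487% of keratin RPKM in iCEC and 5.89, 4.21 and 3.47% in pCEC.

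Of Krt6a, Krt6b, Krt16 and Krt17, which are known to rise in skin after wounding, only Krt17 was called between iCEC and pCEC with all libraries. Krt6a was at 9.39, 13.2 and 17.6 CPM in pNCC, 2009, 2360.4 and 1365 in iCEC and 2524, 2904 and 3908 in pCEC. Krt6b was at 0.404, 0.381 and 0.542 in pNCC, 1899, 2053 and 92.5 in iCEC and 3501, 3304 and 4891 in pCEC. Both rose against pNCC, by 7.19 ± 0.49 and 11.65 ± 1.56 in iCEC (edgeR adjusted p = 0.000516 and 0.0038) and by 7.99 ± 0.40 and 13.22 ± 0.38 in pCEC (edgeR adjusted p = 6.05e-06 and 1.04e-06). Neither was called between iCEC and pCEC, with -0.82 ± 0.36 and -1.61 ± 1.00 (edgeR adjusted p = 0.159 and 0.302), but Krt6b was called lower in iCEC without iCEC 3, at -1.02 (edgeR adjusted p = 0.0375). The ratio of Krt6a to Krt6b in RPKM was 21.5, 31.9 and 30.0 in the pNCC libraries, 0.978, 1.06 and 13.6 in those of iCEC and 0.666, 0.812 and 0.739 in those of pCEC. iCEC 3 lay between pNCC and the other iCEC libraries in this ratio. The 2 genes share 18.7% and 18.8% of their 150-base windows, so reads could be split between them and their separate levels are uncertain.

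Krt17, a type I chain induced in activated skin, was at 22.0, 24.0 and 27.0 CPM in pNCC, 941, 1419 and 2360.1 in iCEC and 6.52, 22.6 and 52.0 in pCEC. It rose in iCEC by 5.98 ± 0.38 (edgeR adjusted p = 0.000431) and did not pass in pCEC, at 0.31 ± 0.65 (edgeR adjusted p = 0.699). pCEC 1, the library labelled polyA RNA, was below every pNCC library and pCEC 3 above each of them. With pCEC 1 alone for the group, Krt17 was called lower in pCEC at -1.87 (edgeR adjusted p = 0.00237). iCEC exceeded pCEC by 5.67 ± 0.91 (edgeR adjusted p = 0.00988), which was 5.39 without iCEC 3 (edgeR adjusted p = 0.012). The call was lost without pCEC 2 (edgeR adjusted p = 0.0559). Krt16, the partner of Krt6a in activated skin, was at 1.93, 1.26 and 4.43 CPM in pNCC, 302, 184 and 95.5 in iCEC and 10.6, 108 and 1003 in pCEC. The pCEC libraries spanned 94.5-fold. Between iCEC and pCEC, which overlapped, Krt16 was not called at -1.12 ± 1.39 (edgeR adjusted p = 0.609). Krt16 rose against pNCC in iCEC by 6.28 ± 0.78 (edgeR adjusted p = 0.00296) and in pCEC by 7.36 ± 1.77 (edgeR adjusted p = 0.00907), the latter being 2.08 and not called with pCEC 1 alone (edgeR adjusted p = 0.0594). Krt16 shares 18.4% of its 150-base windows with Gm11597 and 37.6% of its 50-base windows with that gene, Krt14 or Krt17, so its level is uncertain. Krt75, a type II keratin of the hair follicle's companion layer, was at 19.8, 11.7 and 9.09 CPM in pCEC, 0.0417, 0.218 and 0.298 in iCEC and 0 in pNCC, and was lower in iCEC than in pCEC, with a log2 difference of -6.30 ± 0.77 (edgeR adjusted p = 0.00473). Krt79, a type II keratin of the hair canal, was instead at 0 in pCEC and at 0.938, 2.13 and 15.7 CPM in iCEC, with 0.435, 0.117 and 0.0571 in pNCC. iCEC was at least 66.6-fold above pCEC (edgeR adjusted p = 0.0346), a call that was lost when iCEC 2 or any 1 pCEC library was left out (adjusted p = 0.0589 to 0.0856). Without iCEC 3 the bound was 16.3-fold and the call held (edgeR adjusted p = 0.0124).

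The simple epithelial pair Krt8 and Krt18 rose in iCEC against pNCC and did not pass the test in pCEC. Krt8 was at 3.89, 8.21 and 1.86 CPM in pNCC, 636, 666 and 2717 in iCEC and 3.20, 5.63 and 2.74 in pCEC. Krt18 was at 2.98, 3.99 and 1.03 in pNCC, 352, 416 and 1395 in iCEC and 1.11, 2.11 and 1.75 in pCEC. For both genes iCEC lay above all 6 other libraries and iCEC 3 was its highest. Krt8 was 274-fold higher in iCEC than in pNCC, a log2 difference of 8.10 ± 0.95 (edgeR adjusted p = 0.00253), and Krt18 259-fold, 8.01 ± 0.85 (edgeR adjusted p = 0.00193). Against pCEC the log2 differences were 8.26 ± 0.83 and 8.58 ± 0.76 (edgeR adjusted p = 0.00286 and 0.00224), and without iCEC 3 they were 7.37 and 7.82 (edgeR adjusted p = 0.00017 and 0.000128). Between pCEC and pNCC neither passed, with -0.12 ± 0.54 for Krt8 (edgeR adjusted p = 0.856) and -0.53 ± 0.53 for Krt18 (edgeR adjusted p = 0.408). The ratio of Krt8 to its partner Krt18 in RPKM was 0.956, 1.51 and 1.33 in the pNCC libraries, 1.32, 1.17 and 1.43 in those of iCEC and 2.12, 1.96 and 1.15 in those of pCEC, so the groups overlapped. Krt8 shares 8.51% of its 150-base windows with the pseudogene Krt8-ps.

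Krt19, a small type I keratin of simple and some basal epithelia, was at 1.31, 3.93 and 3.28 CPM in pNCC, 1520.4, 1855 and 147 in iCEC and 109.9, 163 and 83.8 in pCEC. Krt7, a type II keratin of ducts and glands, was at 1.74, 3.69 and 0.742 in pNCC, 1027, 1263 and 11.4 in iCEC and 64.4, 20.8 and 27.1 in pCEC. For both, iCEC 1 and 2 were above every pCEC library, while iCEC 3 fell among the pCEC values for Krt19 and below them for Krt7. Krt19 rose in iCEC by 8.78 ± 1.29 (edgeR adjusted p = 0.00502) and in pCEC by 5.50 ± 0.47 (edgeR adjusted p = 7.22e-05). Krt7 rose in iCEC by 8.66 ± 1.92 (edgeR adjusted p = 0.0186), a call lost when any 1 pNCC library was left out (adjusted p = 0.0685 to 0.0853), and in pCEC by 4.31 ± 0.66 (edgeR adjusted p = 0.00116). Neither passed between iCEC and pCEC, at 3.24 ± 0.92 and 4.33 ± 1.49 (edgeR adjusted p = 0.053 and 0.0895), and both did so without iCEC 3, at 3.81 and 4.93 (edgeR adjusted p = 0.000743 and 0.00174). Krt23, a type I keratin of simple epithelia such as the gut, was at 0, 0.117 and 0 CPM in pNCC, 71.4, 341 and 78.7 in iCEC and 14.9, 1.22 and 14.3 in pCEC. It rose in iCEC by 11.99 ± 1.42 (edgeR adjusted p = 0.0026) and in pCEC by 8.01 ± 1.39 (edgeR adjusted p = 0.00206). iCEC and pCEC did not overlap for Krt23, but the log2 difference of 3.95 ± 1.12 just missed the threshold (edgeR adjusted p = 0.0524). Without iCEC 3 it was 4.34 and passed (edgeR adjusted p = 0.0451). Krt20, a type I keratin of the gut lining, stayed below 1 CPM in every library and had 0 counts in iCEC. The 6 simple epithelial keratins together made up 9.69, 16.5 and 21.0% of keratin RPKM in iCEC, 0.402, 0.374 and 0.220% in pCEC and 7.80, 12.0 and 3.91% in pNCC.

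Keratins of cornified epidermis were low except for Krt80. Krt80, a type II keratin that accompanies the late steps of epithelial differentiation, was at 3.70, 4.05 and 3.31 CPM in pNCC, 37.9, 310.2 and 50.1 in iCEC and 555, 419 and 567 in pCEC. pCEC was the highest group without overlap, and iCEC 2 stood above the other iCEC libraries. The log2 difference of iCEC over pCEC was -2.01 ± 0.86 and not called (edgeR adjusted p = 0.152), but without iCEC 2 it was -3.70 and called (edgeR adjusted p = 0.00473). Krt80 rose in iCEC by 5.27 ± 1.03 (edgeR adjusted p = 0.0124), a call lost when any 1 pNCC library was left out (adjusted p = 0.0602 to 0.0629), and in pCEC by 7.25 ± 0.21 (edgeR adjusted p = 1.03e-06). The epidermal pair Krt1 and Krt10 had group means of 1.47 and 2.71 CPM in iCEC, 8.93 and 7.15 in pCEC and 0.0610 and 1.07 in pNCC. Both were lower in iCEC than in pCEC, with log2 differences of -2.68 ± 0.47 and -1.50 ± 0.40 (edgeR adjusted p = 0.0121 and 0.0423). Leaving out pCEC 1 or 2 ended both calls (edgeR adjusted p = 0.0569 to 0.142), and leaving out iCEC 1, iCEC 2 or pCEC 3 ended that of Krt10 (edgeR adjusted p = 0.0627 to 0.163). Krt77, an epidermal type II keratin, and Krt222, an unusual type I gene, were called lower in iCEC from means of 0.160 and 0.0882 CPM against 0.710 and 0.583 in pCEC (edgeR adjusted p = 0.0365 and 0.0458). Krt90 was at 12.1, 5.69 and 16.2 CPM in pCEC, 3.04, 1.28 and 0.417 in iCEC and 0 in pNCC. It missed the threshold between iCEC and pCEC at -2.93 ± 0.82 (edgeR adjusted p = 0.05001). The other keratins with a mean of 1 to 10 CPM were Krt87 (2.80 in iCEC, from 14, 298 and 0 counts), Krt74 (2.35 in pCEC, 0 in the other groups), Krt79 (given above) and Krt42 (1.84 in iCEC). Krt74 is annotated as a transcribed unitary pseudogene. The 29 members below 1 CPM comprise most hair shaft and inner root sheath genes, and 2 of them were at 0 in all 9 libraries. The 15 hair shaft keratins had no count in any pNCC library and summed to 0.298 to 11.3 CPM in iCEC and 1.83 to 2.41 in pCEC.

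**Figure D3:**
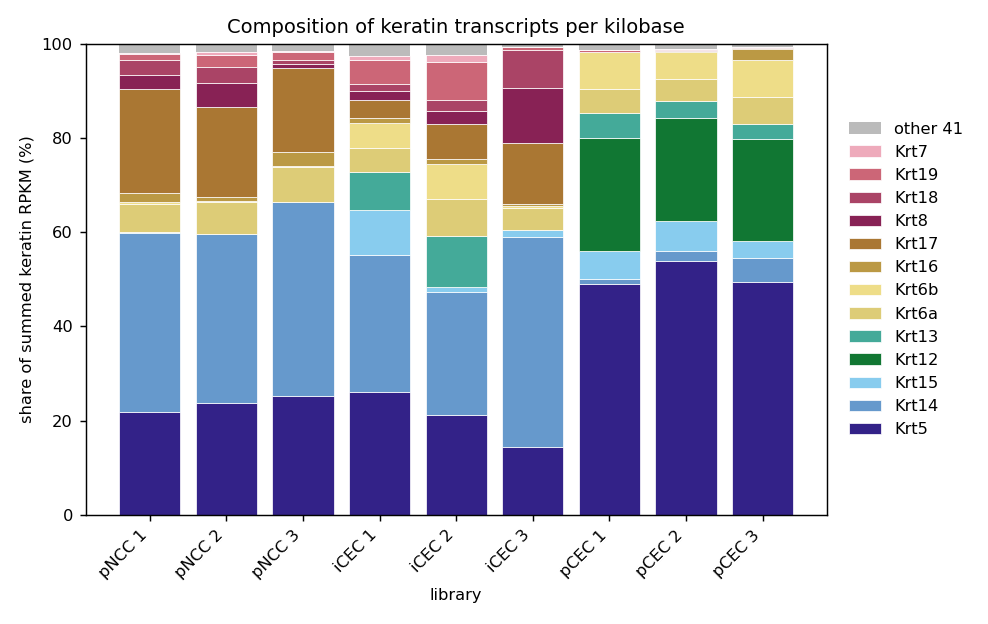
Share of each keratin in the summed keratin RPKM (%) of each library; stacked bars, with 13 keratins named and the other 41 in grey. Krt5 and Krt12 make up most of each pCEC bar, Krt14 the largest part of each pNCC and iCEC bar, and Krt8 and Krt18 are widest in iCEC 3.

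Per kilobase, the order of the keratins differed between groups. In pNCC it ran Krt14 (31.4 ± 8.24 RPKM), Krt5 (19.3 ± 5.35), Krt17 (15.7 ± 1.62) and Krt6a (5.54 ± 1.70), with every other member below 3. Krt14 and Krt5, and Krt5 and Krt17, overlapped in their ranges, whereas Krt6a lay below them. In iCEC it ran Krt14 (4419 ± 1079), Krt5 (2856 ± 1292), Krt17 (1015 ± 465), Krt13 (887 ± 768) and Krt6a (791 ± 209), followed by Krt8, Krt19, Krt15, Krt6b and Krt18 at means of 502 to 684. Krt14 and Krt5 overlapped in their ranges, as did all neighbours from Krt17 to Krt18, but Krt5 was above Krt17 without overlap. In pCEC it ran Krt5 (12469 ± 2263), Krt12 (5498 ± 597), Krt6b (1744 ± 387), Krt6a (1287 ± 296), Krt15 (1255 ± 333), Krt13 (942 ± 86.7) and Krt14 (729 ± 646). Only Krt5 and Krt12 stood clear of their neighbours there. Krt5 made up 49.1, 54.0 and 49.4% and Krt12 24.1, 21.9 and 21.7% of keratin RPKM in pCEC, while Krt14 made up 29.2, 26.1 and 44.6% in iCEC and 1.00, 2.09 and 5.23% in pCEC.

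The iCEC libraries varied more among themselves for keratins than for genes at large. Of the 15 keratins with a mean of 10 CPM or more in iCEC, 6 had a highest library over 10-fold above the lowest (40.0%), against 5.61% of the 9689 genes at that level. In pCEC it was 2 of 17 (11.8%), against 0.523% of 9175 genes, and in pNCC none of 4, against 0.192% of 9387 genes. These shares describe the libraries and carry no test. Of the 19 keratins, iCEC 3 was below both other iCEC libraries for 10, above both for 6 and between them for 3. The 10 include Krt13, Krt4, Krt7, Krt19 and Krt6b, and the 6 include Krt8, Krt18, Krt17 and Krt14. Other lists also moved with iCEC 3. Msln, a mesothelial gene, was at 592, 99.9 and 3.04 CPM in iCEC 1, 2 and 3, the 4 mesothelial markers summed to 606, 102 and 3.10, and the 4 conjunctival and goblet markers to 124, 624 and 4.17, with Muc4 the leading gene in the first 2. The mesothelial sum was nearly all Msln, with Wt1 at 0.0834 CPM or less and Lrrn4 at 0 in iCEC. Muc5ac and Spdef were at 0.208 CPM or less in iCEC. In pCEC the conjunctival and goblet markers summed to 1625 to 2723 CPM, above every iCEC library. Nearly all of this was Muc4, while Muc5ac was at 0 in pCEC and Spdef and Agr2 averaged 0.516 and 0.896 CPM there. In iCEC 1, 2 and 3 the 5 keratocyte markers summed to 4.77, 4.47 and 146, with Dcn the leading gene in each and Kera at 0. Their part in the keratin differences was not tested.

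**Figure D4:**
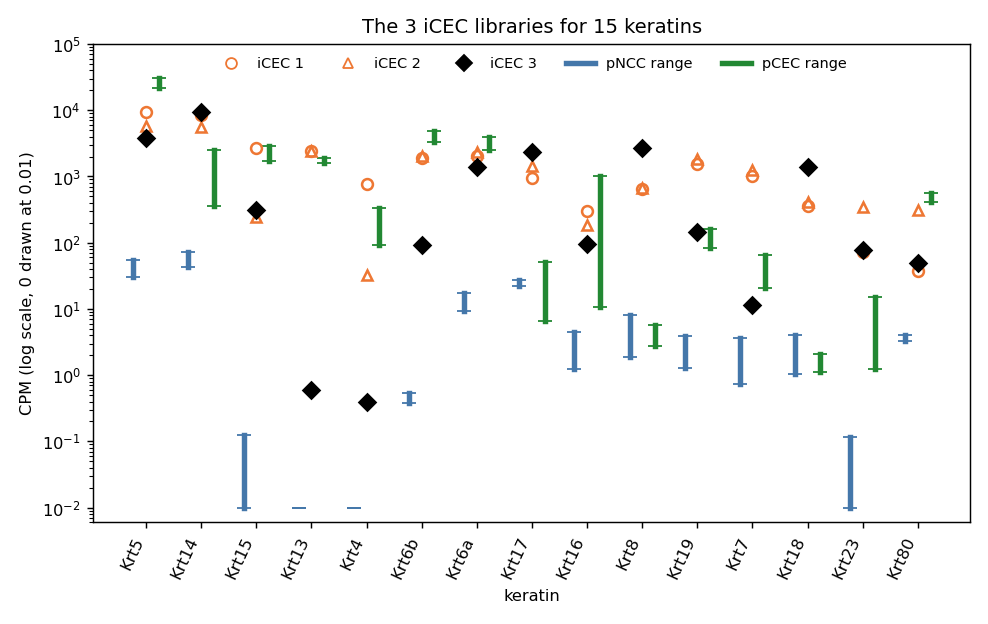
CPM (log scale, 0 drawn at 0.01) of the 15 keratins with a mean of 10 CPM or more in iCEC, for iCEC 1 (circles), iCEC 2 (triangles) and iCEC 3 (black diamonds), beside the ranges of pNCC (blue) and pCEC (green). iCEC 3 falls to 0.595 CPM for Krt13 and 0.387 for Krt4 but is the highest iCEC library for Krt8 (2717) and Krt18 (1395).

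Across the fit of all genes, 20 of the 54 keratins passed the filter on low counts in iCEC against pNCC. Of these 18 were called higher and 0 lower, where 16.1% of all genes tested were called higher and 15.1% lower. The 18 are Krt5, Krt14, Krt15, Krt13, Krt6a, Krt6b, Krt16, Krt17, Krt79, Krt8, Krt18, Krt19, Krt7, Krt23, Krt80, Krt1, Krt90 and Krt42. The 2 not called were Krt4 and Krt10 (edgeR adjusted p = 0.0712 and 0.0661). No keratin was lower at an unadjusted p under 0.05 or by DESeq2. Many of these genes passed the filter through their level in iCEC, so the count describes the genes that could be tested and is no measure of the family. Their median log2 difference was 7.63, or 7.21 with the 3 genes at 0 in pNCC set to their bounds, against 0.05 over all genes tested. Without iCEC 3, the log2 differences of iCEC over pNCC were 7.53 for Krt5, 7.04 for Krt14, 14.57 for Krt15, 7.22 for Krt8, 7.26 for Krt18, 5.68 for Krt17, 7.42 for Krt6a, 12.18 for Krt6b, 9.28 for Krt19 and 9.21 for Krt7, and each was called. In that fit 24 were tested and 23 called higher, and leaving out pNCC 1, 2 or 3 gave 11, 11 and 12. In pCEC against pNCC 27 passed the filter, 23 were called higher and 0 lower, where 30.3% of all genes tested were called higher and 32.2% lower. The 23 include all 3 basal keratins, all 3 of the unkeratinised upper layers, Krt12 and 5 of the 8 epidermal ones (Krt1, Krt10, Krt76, Krt77 and Krt80). The 4 not called were Krt8, Krt18, Krt17 and Krt20. No keratin was lower at an unadjusted p under 0.05 or by DESeq2. Their median log2 difference was 7.62, or 6.99 with 9 genes at their bounds and 1 as a counting ratio, against -0.01 over all genes. Many of the 27 passed the filter through their level in pCEC, so here too the count and the median are no measure of the family. Both comparisons use the same pNCC libraries, so they are not independent of each other.

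Between iCEC and pCEC 30 keratins were tested. Higher in iCEC were 4 (Krt8, Krt18, Krt17 and Krt79), where 10.5% of all genes tested were called higher. Lower in iCEC were 9 (Krt5, Krt12, Krt78, Krt75, Krt1, Krt10, Krt74, Krt77 and Krt222), where 9.92% were called lower. The other 17 did not pass. The median log2 difference was -0.91, against 0.04 over all genes. By chain type, 2 of 17 tested type II genes were higher and 6 lower, and 2 of 13 tested type I genes were higher and 3 lower. Some of the 30, such as Krt74 (0 in iCEC) and Krt79 (0 in pCEC), passed the filter through their level in 1 group. The counts, the split by chain type and the median are therefore no measure of the family. Without iCEC 3 the counts were 7 higher, now with Krt7, Krt19 and Krt23, and 10 lower, now with Krt6b, Krt20 and Krt90 but not Krt77 and Krt222. Leaving out a pCEC library gave 2 to 4 higher and 3 to 4 lower, and no keratin was called with pCEC 1 alone.

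**Figure D5:**
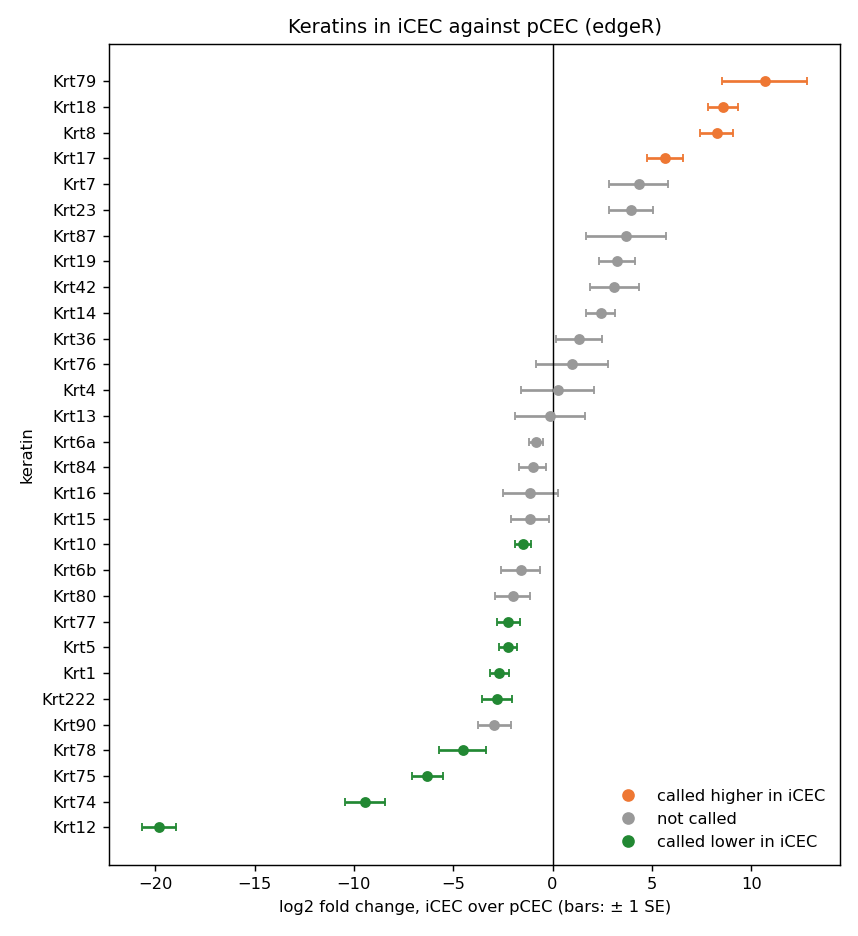
Log2 fold change of iCEC over pCEC (x axis) with 1 SE (bars) for the 30 keratins tested (y axis), by edgeR's fit; orange marks genes called higher in iCEC, green lower and grey not called. Krt8 and Krt18 lie above 8 and Krt12 near -20, where the fit rests on 1 count in iCEC. Krt79 at 10.7 rests on 0 counts in pCEC and Krt74 at -9.45 on 0 in iCEC, so their folds are known only as bounds.

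The partners of keratin filaments were described beside them. Vim, the intermediate filament of mesenchymal cells, was at 3152, 3981 and 3737 CPM in pNCC, 95.6, 64.2 and 24.0 in iCEC and 10.7, 63.3 and 55.3 in pCEC. It fell in both groups against pNCC, with log2 differences of -5.83 in iCEC (edgeR adjusted p = 0.00227) and -6.24 in pCEC (edgeR adjusted p = 0.000326). Of 16 other intermediate filament genes 10 were tested in each comparison, with 1 higher and 4 lower in iCEC against pNCC, 5 and 5 in pCEC against pNCC, and 1 and 3 in iCEC against pCEC. Named among them were the lamins of the nuclear envelope, with a log2 difference of -2.37 for Lmnb1 in iCEC over pCEC (edgeR adjusted p = 0.00928). In pCEC over pNCC, Lmnb1 was higher at 1.70 (edgeR adjusted p = 7.25e-05) and Lmna lower at -1.84 (edgeR adjusted p = 0.000292). Of 13 genes that anchor keratins at desmosomes and hemidesmosomes, 10 were higher and 0 lower in iCEC against pNCC, 11 higher and 1 lower in pCEC against pNCC, and 1 higher and 5 lower in iCEC against pCEC. Beside both lists, 16.1% of all genes tested were called higher and 15.1% lower in iCEC against pNCC. The shares were 30.3% and 32.2% in pCEC against pNCC, and 10.5% and 9.92% in iCEC against pCEC. Dsp, the plakin that ties keratins to desmosomes, averaged 11.0 CPM in pNCC, 1619.5 in iCEC and 3517 in pCEC, and was lower in iCEC than in pCEC, with a log2 difference of -1.23 (edgeR adjusted p = 0.0225). Pkp2, the plakophilin of simple epithelia and heart, was the 1 anchor higher in iCEC than in pCEC, at 33.5 against 4.08 CPM and a log2 difference of 2.89 (edgeR adjusted p = 0.0104). Median log2 differences of the anchors were 7.17, 8.18 and -1.17 in the 3 comparisons.

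Of 13 transcription factors known to act on keratin genes, 12 were tested in iCEC against pNCC, of which 11 were higher and 0 lower, and all 13 were higher in pCEC against pNCC. Between iCEC and pCEC 0 were higher and 4 lower. Over all genes tested, 16.1% were called higher and 15.1% lower in iCEC against pNCC, and 30.3% and 32.2% in pCEC against pNCC. In iCEC against pCEC these shares were 10.5% and 9.92%. Trp63, the p53 relative that keeps stratified epithelium, was at 1.55, 1.76 and 0.914 CPM in pNCC, 251, 275 and 262 in iCEC and 380.0, 341 and 337 in pCEC. iCEC lay below pCEC without overlap, but the log2 difference of -0.54 was not called (edgeR adjusted p = 0.0738). For Trp63 iCEC 3 did not stand apart. Ehf, an epithelial ETS factor, averaged 0.141 CPM in pNCC, 775 in iCEC and 592 in pCEC. The 4 that were lower in iCEC than in pCEC were Pax6, Klf4, Ovol1 and Tfap2c, with log2 differences of -11.55, -3.21, -2.37 and -1.24 (edgeR adjusted p = 0.00272, 0.00654, 0.0188 and 0.0313). Median log2 differences of the factors were 7.22, 8.89 and -1.09 in the 3 comparisons, beside 0.05, -0.01 and 0.04 for all genes tested.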

How the data were processed

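RNA was measured in 9 libraries, 3 each of pNCC, iCEC and pCEC, sequenced as pairs of 150-base reads from NEBNext Ultra libraries, per the labels' protocols. The authors deposited 1 table of raw read counts, with a row for each gene symbol and a column for each library. mm10 and edgeR are named without a role in the submitters' processing notes, and the aligner, counter, annotation and use of strand are not given in the sources used here. In each library 69.1 to 74.5% of the counts from 1 to 10 were even, against 50.1 to 51.7% of counts over 1000, so small counts may hold fewer separate fragments than their size says.

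CPM were taken on library totals. RPKM used the union of exons of GENCODE M21, and promoters came from RefSeq on GRCm38.p6. Each comparison was fitted on its 6 libraries with edgeR 4.0.16 (R 4.3.3, limma 3.58.1; filterByExpr, TMM scaling, robust quasi-likelihood fit, 2-sided test) with Benjamini-Hochberg adjustment over all genes tested and a threshold of 0.05, after tests on simulated data. The SE of a log2 fold change is its size over the root of its F value. A group at 0 was given a floor of 3 counts per library, and the resulting bounds, like all counting intervals, cover counting error only. Tables and figures were made with Python 3.11.15, numpy 2.4.6, pandas 2.3.3, scipy 1.17.1 and matplotlib 3.10.9.

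Keratins with a mean of 10 CPM or more in a group are given by library and those of 1 to 10 CPM by group means. Of the other lists, up to 4 called genes with the smallest adjusted p, Vim, Pax6 and Trp63 could be named. The members and lists were chosen with earlier results of these data known. Krt20, Krt77 and Krt222, which fall outside that rule, are named because the counts of calls include them, as are Krt76 and the pseudogene Krt8-ps, and they were chosen after their values were seen. No p is given for the summed keratin level, a score over the members. Alternatives were DESeq2 1.42.0, its size factors in edgeR, other filters, all 9 libraries in 1 fit, a replicate block, keratins left out of the totals, each library left out, pCEC 1 alone and, chosen after seeing the data, halved counts and another gene length. No pair of libraries of the same group had counts that agree within sampling noise. The summed level of the corneal endothelial markers is not reported here, and the single endothelial and keratocyte markers were named after their values were seen.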

Additional observations from a re-analysis of the deposited data

Results flagged for a closer look

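Krt8-ps, a processed pseudogene of Krt8 that is not among the 54 keratins, had counts of 110, 30 and 264 in iCEC 1, 2 and 3, against 0, 0 and 2 in pNCC and 0 in each pCEC library. It is given here because the signal lies outside the genes compared and above the level of pNCC. Its counts were 0.361, 0.123 and 0.289% of those of Krt8 in the same iCEC libraries. Krt8 shares 8.51% of its 150-base windows with this pseudogene, and whether its reads come from Krt8 was not tested.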

How the results depend on the processing

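With 3 libraries a group, single libraries moved the counts of called keratins. Leaving out each library in turn gave 11 to 23 higher in iCEC against pNCC (18 with all), and 2 to 7 higher and 3 to 10 lower in iCEC against pCEC (4 and 9 with all), while pCEC against pNCC gave 23 each time. In iCEC against pNCC, DESeq2 also called 18 higher, among them Krt4 and Krt10 but not Krt15 and Krt80. In iCEC against pCEC, DESeq2 called 9 higher and the fit of all 9 libraries 8. With pCEC 1 alone 0 were called higher and 0 lower there, and in that fit the lone library is assumed to vary like the other group. In pCEC against pNCC 1 keratin was called lower with no filter (Krt79) and 1 with pCEC 1 alone (Krt17). Replicate numbers did not pair the libraries (r of same-numbered deviations -0.181 to 0.0714), and with the replicate block 3 were called lower in iCEC against pCEC. Type I shares without length were 57.1, 54.9 and 31.1% in pNCC, iCEC and pCEC.

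Signs turned for differences that were not called. Leaving out each library in turn, pCEC over pNCC ranged from -0.58 to 0.85 for Krt17 and from -0.50 to 0.54 for Krt8, and iCEC over pCEC from -0.55 (without iCEC 2) to 0.47 (without iCEC 3) for Krt13, from -1.69 to 1.58 for Krt16, from -3.64 to 0.89 for Krt4 and from -0.094 to 0.83 for Vim. With the replicate block Krt17 was -0.13 and Krt8 0.026 in pCEC over pNCC, and Krt16 0.67 and Krt4 -3.29 in iCEC over pCEC. With pCEC 1 alone Krt17 was -1.87 against pNCC, where it was called, and Krt16 4.19 in iCEC over pCEC. The cause was not tested. Of 1083 values of single genes under an alternative, 961 kept direction and side of the threshold, 72 lost the call, 34 gained it and 16 turned sign.

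Keratins below 1 CPM rest on few counts.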
